A study of Rattus norvegicus with 35 samples.

Results

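The insulin-like growth factor (IGF) axis was compared in the olfactory epithelium of newborn, adult and old rats. Its 10 members were the hormones Igf1 and Igf2, the receptors Igf1r and Igf2r, the binding proteins Igfbp2, Igfbp3, Igfbp4, Igfbp5 and Igfbp6, and the growth hormone receptor Ghr. Members were found by symbol, in the gene name or in the description that the array files give each probe, without regard to any level. The search found 18 probes among 41012, each 60 bases long. Of the 10 genes, 5 had a single probe and 5 had several, and each gene was represented by its brightest probe, the one whose level averaged highest over all rats. RNA came from Brown Norway rats in 3 age groups. The 19 newborn pups, aged 3 to 5 days and of unrecorded sex, belonged to 4 litters, with 4 pups in L1 and 5 in each of L2, L3 and L4. They were set against 4 adult males aged 9 weeks and 4 old males aged 22 months. A pup gave RNA from 1 side of the nose and 1 array. Each adult or old rat gave both sides, named nostril A and nostril B, on 1 array each, so that the data comprised 35 arrays with 1 dye.

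IGFs are small secreted proteins related to insulin that drive growth and cell survival. Both act through the tyrosine kinase receptor encoded by Igf1r, whereas the product of Igf2r binds Igf2, delivers it to lysosomes and also carries lysosomal enzymes. Outside cells most IGF is held by binding proteins, which share cysteine-rich ends, prolong its life in tissue fluid and can block or favor its binding to the receptor. Growth hormone acts through Ghr and is the main stimulus for Igf1 in the liver, and many tissues, including connective tissue and cartilage, also make IGFs locally. Igf2 is an imprinted gene that is highly active in the fetus. The olfactory epithelium replaces its sensory neurons throughout life and lies on a connective tissue with glands, vessels, nerve bundles and bone.

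A few probe sequences matter for reading the values, and they are given from 5′ to 3′ as the array files list them, with positions in rat build rn3. The rat Igf1 gene starts from either of 2 leader exons, both of which splice to the same next exon. A probe at chr7:24552241-24557334 joined the upstream leader exon to that shared exon, and a probe at chr7:24554081-24557319 joined the downstream leader exon to it. Only the last 30 bases of each are shown, with the bases of the shared exon in capitals: 18 bases in the first and 3 in the second.
Igf1, upstream leader: gacttcttgaagATAAAGATACACATCATG
Igf1, downstream leader: ggacgtaccaaaatgagcgcacctccaATA
The binding proteins are related enough for their probes to share short runs, and the longest run common to the probe of Igfbp6, at chr7:140964859-140964918, and the second probe of Igfbp3, at chr14:87980756-87981650, was the 12 bases in capitals.
Igfbp3: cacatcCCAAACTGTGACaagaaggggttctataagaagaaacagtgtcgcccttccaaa
Igfbp6: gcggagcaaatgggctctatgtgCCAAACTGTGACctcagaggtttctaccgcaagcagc
Igf1r was read by 1 sequence, at chr1:123067493-123067552 and spotted 10 times on each array, and it is shown because all statements on this receptor rest on it.
Igf1r: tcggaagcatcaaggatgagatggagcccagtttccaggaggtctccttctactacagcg

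A level is the log2 of a probe's background-subtracted intensity over the median of its array, so that a level of 0 is the signal of the median probe and 1 unit is a doubling. Levels of different probes are not comparable with each other. The median intensity ran from 42.1 to 87.7 on the newborn arrays, from 81.6 to 162 on the adult arrays and from 37.1 to 55.3 on the old arrays. Adult arrays were scanned on days of their own and with an earlier release of the scanner software, the old rats and L1 had a scan day in common, and the remaining litters shared 2 later days. Adult rats and their scan days cannot be told apart. The tissue was checked with lists of marker genes. The summed level of 6 genes of mature olfactory sensory neurons, in multiples of the array median, was 214 to 471 in pups, 1280 to 1730 in adult and 1960 to 2700 in old rats. The sum for 6 fibroblast genes ran from 3080 to 7520 in pups, 2170 to 3510 in adult and 397 to 749 in old rats, and that for 6 skeletal muscle genes from 17.1 to 531 in pups, against 1.02 to 2.13 in adult and 0.668 to 1.16 in old rats. Myh8, of that list, was not well above background on any adult or old array. The chondrocyte sum was 88.4 to 347 in pups, 25.9 to 28.5 in adult and 25.9 to 29.4 in old rats. The similar sums of the older groups hide differences of single genes. In the limma fit at an adjusted p under 0.01, 3 of the 6 chondrocyte genes were higher in adult and 1 higher in old rats. The shares of all transcripts were 11.7% and 20.2%. For osteoblasts the sum was 983 to 3260 in pups, 1280 to 2380 in adult and 338 to 634 in old rats. Globose basal cells gave 88.3 to 165, 29.4 to 36.2 and 16.9 to 20.9. Horizontal basal cells gave 479 to 2620, 390 to 628 and 764 to 970. Immature neurons gave 1230 to 2480, 827 to 1230 and 758 to 982. Ensheathing glia gave 114 to 1190, 231 to 445 and 405 to 583. Endothelial cells gave 42.1 to 101, 28.2 to 30.8 and 26.6 to 37. Pericytes and smooth muscle gave 79.1 to 134, 58.9 to 82.1 and 67 to 82.9. Red cells gave 250 to 1050, 53.3 to 111 and 169 to 384. Macrophages gave 37 to 91.4, 22.3 to 38.3 and 24.7 to 31.5. Sustentacular and gland cells gave 583 to 2080, 1930 to 2140 and 3180 to 3570. Of the 5 genes behind this sum, 4 were lower in newborn than in adult rats at an adjusted p under 0.01, against 19.8% of all transcripts. The log2 differences of the 5 genes, newborn minus adult, ran from -3.72 to 2.56. In whole tissue, fewer cells of a type and less RNA per cell cannot be told apart. The part of these cell types in the differences described here was not tested.

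All 10 members were expressed in each of the 4 litters, in adult and in old rats, by the study's rule of a signal above background on 3 arrays of a litter or on 6 of the 8 arrays of an older group. Between newborn and adult rats, 9 of the 10 differed in the limma fit at an adjusted p under 0.01. Levels were higher in newborn rats for 7 members, against 26.8% of all transcripts tested, and higher in adult rats for 2 members, against 19.8%. Between newborn and old rats, 7 differed, of which 6 were higher in newborn rats, against 20.4% of all transcripts, and 1 was higher in old rats, against 22.7%. Igf1, Igf2 and Igfbp3 passed with a fold of at least 5 in both comparisons, whereas 2.26% of all transcripts did so above adult and 2.96% above old rats. Between adult and old rats, 3 members differed, all of them higher in adult rats, against 11.7% of all transcripts, while 20.2% of all transcripts were higher in old rats. Both comparisons of newborn rats share the pups, and the adult rats and the old rats each enter 2 comparisons. Over the 23668 transcripts expressed in every group, which is the class of these members, 38.4% passed as higher in pups than in adults and 25.5% as lower. Against old rats, 27.2% passed as higher in pups and 30.3% as lower. Between adult and old rats, 14.7% passed as higher in adult and 29.5% as higher in old rats. The median absolute log2 difference of the members was 1.17, 1.24 and 0.59 in the 3 comparisons, against 0.55, 0.44 and 0.44 for the transcripts expressed in every group. Over all transcripts the median log2 difference was 0.10 for newborn minus adult, -0.04 for newborn minus old and -0.13 for adult minus old. Quantile normalization moved these medians to 0, -0.04 and 0.00. Some of the smaller differences, those of Igf1r from newborn rats and of Igf2 between adult and old rats, are therefore also given relative to the medians before it.

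**Figure D1:**
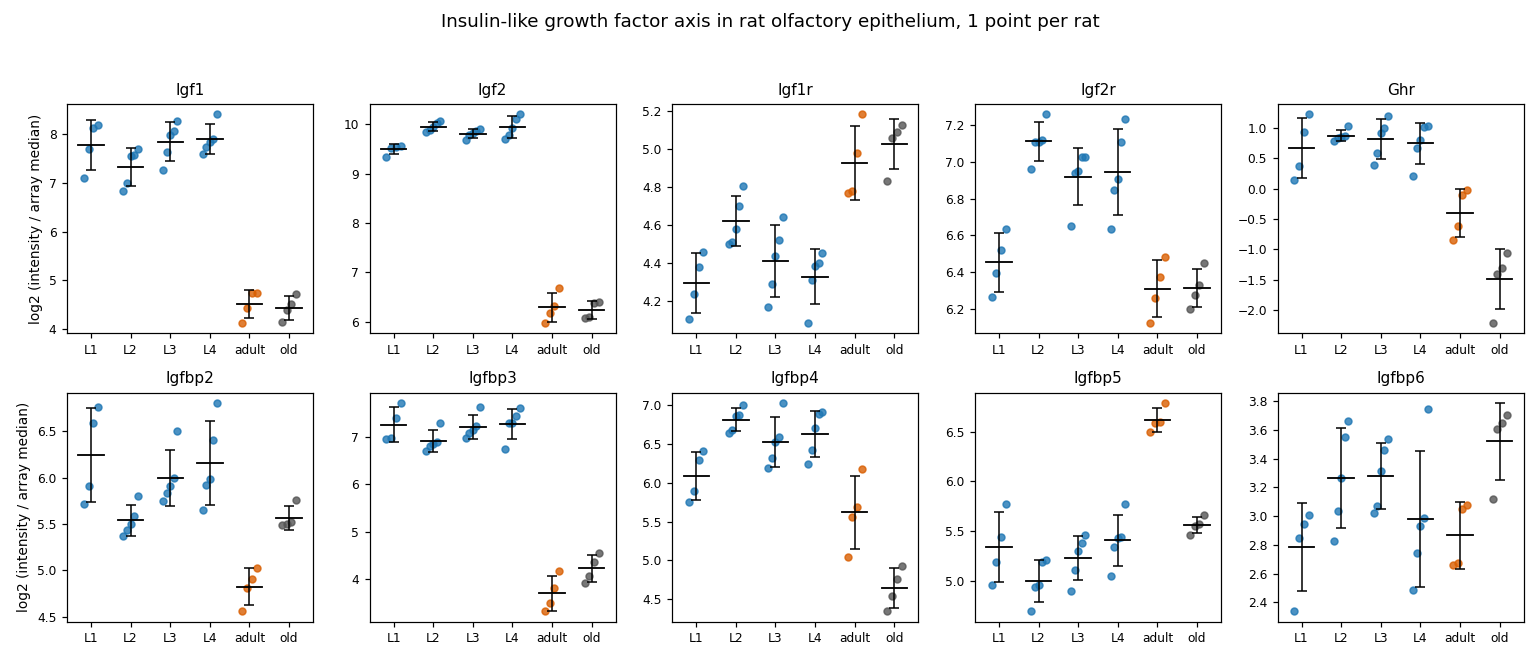
Level of each member on its brightest probe, as the log2 of intensity over the array median, in the 19 pups of litters L1 to L4, the 4 adult and the 4 old rats. A point is a rat, a bar the group mean and a whisker the SD. Igf1, Igf2 and Igfbp3 separate pups from older rats by about 3 units, while on these probes Igfbp5 is highest in adult rats and the means of Ghr and Igfbp4 step down at each age.

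Both hormones were higher in the pups than in either older group. Igf2, the growth factor of the fetus, had levels from 9.34 to 10.2 in pups, with a median of 9.84. The adult rats read 5.98, 6.32, 6.17 and 6.67, and the old rats 6.39, 6.09, 6.38 and 6.07. No older rat came within 2 units of any pup. The mean was 9.80 ± 0.22 in newborn rats (SD, n = 4 litters), 6.29 ± 0.29 in adult and 6.23 ± 0.18 in old rats (SD, n = 4 rats each). Newborn levels were 11.4-fold above adult levels (log2 difference 3.51 ± 0.10, SE, adjusted p = 1.04e-17) and 11.8-fold above old levels (3.56 ± 0.10, adjusted p = 7.19e-18). Of all transcripts tested, 0.556% were at least this much higher in newborn than in adult rats. Adult and old rats overlapped and differed by 0.05 ± 0.12 (adjusted p = 0.791), or by 0.18 relative to the median of all transcripts.

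Igf1, the growth hormone-dependent member of the pair, ran from 6.84 to 8.41 in pups on its brightest probe (chr7:24624986-24625045), with a median of 7.71. It read 4.43, 4.75, 4.13 and 4.73 in the adult and 4.39, 4.13, 4.51 and 4.71 in the old rats. The older groups lay on top of each other and well below every pup. Newborn levels were 9.23-fold above adult (3.21 ± 0.20, adjusted p = 2.99e-12) and 9.72-fold above old levels (3.28 ± 0.20, adjusted p = 3.35e-12). Adult and old rats differed by 0.07 ± 0.25 (adjusted p = 0.863).

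The leader probes of Igf1 did not all follow the brightest probe. The upstream leader, shown above, did so: its levels were 2.97 to 4.92 in pups, 0.81 to 1.39 in adult and 0.88 to 1.15 in old rats, 7.44-fold higher in newborn than in adult rats (2.90 ± 0.24, adjusted p = 3.11e-10). Its correlation with the brightest probe was 0.99 over the 27 rats, which share the age groups. The downstream leader was dim. Its junction probe was well above background on 14 of 19 newborn, 1 of 8 adult and 0 of 8 old arrays. Inside the same leader exon lay Igf1 probe A_44_P421502, at chr7:24554021-24554080 and spotted 10 times, which was well above background on 9 newborn, 0 adult and 7 old arrays. On that probe the pups ran from -3.96 to -1.15, the adult rats read -3.17, -3.19, -2.89 and -3.11, and the old rats -1.31, -1.42, -1.49 and -2.31. The newborn level was at least 1.16-fold above the adult one (adjusted p = 0.00285), a difference that missed the threshold under 4 of 17 alternatives. Every old rat lay above every adult rat. Over the array median, the old level was at least 1.66-fold higher than the adult one (measured log2 difference -1.46 ± 0.33 for adult minus old, adjusted p = 8.64e-04). The junction probe differed in the same direction without overlap, but missed the threshold (-1.23 ± 0.41, adjusted p = 0.018). With 1 of 8 adult and 0 of 8 old arrays well above background there, no bound on a fold can be given. The array medians had a median of 56.6 for newborn, 112 for adult and 42.3 for old arrays. A signal near background has a lower level where the array median is higher. The part of this in the differences of both probes was not tested. With the normexp background, which compresses dim signals, the difference of the inner probe was -0.19 (adjusted p = 0.00558), and in the authors' matrix it was -0.99 and no longer passed (adjusted p = 0.0272). Within the newborn rats the inner probe also differed among litters (adjusted p = 6.82e-04), from a mean of -3.14 in L2 to -1.40 in L1, and L1 and the old rats were scanned on the same day.

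**Figure D2:**
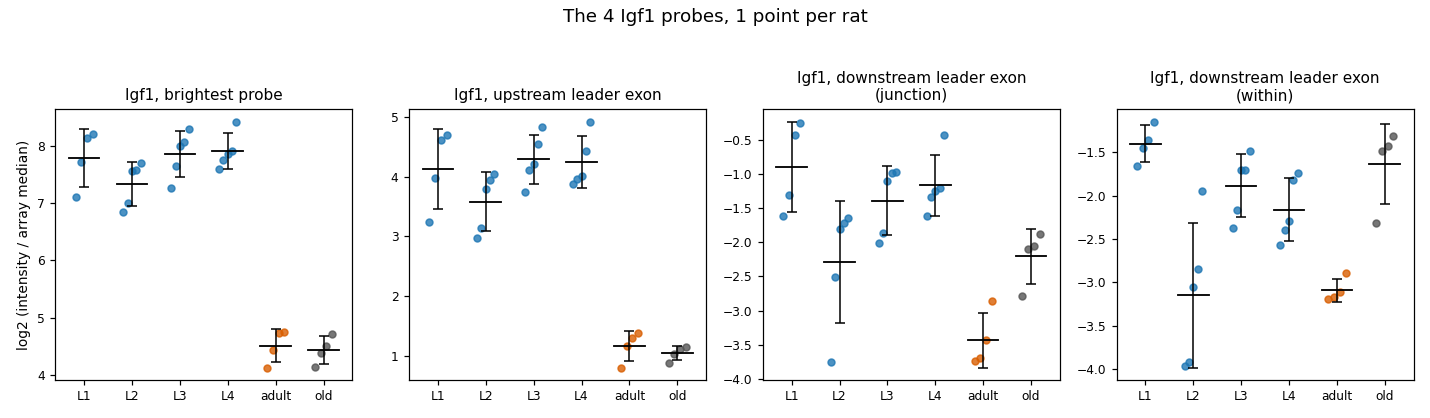
Levels of the 4 Igf1 probes, as the log2 of intensity over the array median, by litter and age group. Points are rats, bars means and whiskers SDs. The first 2 probes are lower in both older groups than in pups, whereas both probes of the downstream leader are near background and lie higher in the 4 old than in the 4 adult rats.

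The receptors changed less than the hormones. Igf1r, which carries the growth signal of both hormones, was the member that was higher at both later ages. Pups ran from 4.09 to 4.81, with a median of 4.44. The adult rats read 4.98, 4.77, 5.18 and 4.78 and the old rats 5.06, 5.13, 4.83 and 5.09. One pup of L2 reached the range of the adult rats, whereas all old rats lay above all pups. Adult levels were 1.43-fold (0.51 ± 0.09, adjusted p = 3.46e-05) and old levels 1.53-fold above newborn levels (0.61 ± 0.09, adjusted p = 4.32e-06). Relative to the median of all transcripts these differences were 0.61 and 0.57. Of all transcripts, 23.4% and 22.4% were shifted at least as far in the same direction.

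Igf2r, which removes Igf2 from the cell surface, ran from 6.26 to 7.26 in pups, with a median of 6.95. It read 6.12, 6.26, 6.37 and 6.48 in the adult and 6.33, 6.45, 6.20 and 6.27 in the old rats. The newborn mean was 1.46-fold above adult (0.55 ± 0.09, adjusted p = 1.61e-05) and old rats (0.54 ± 0.09, adjusted p = 2.17e-05). This rested on L2, L3 and L4. Pups of L1, at 6.26, 6.52, 6.39 and 6.64, overlapped with both older groups, while the lowest pup of the other litters read 6.63. Within the scan day that L1 shared with the old rats, L1 exceeded old rats by 0.14 (adjusted p = 0.297). Quantile normalization reduced the difference between newborn and adult rats to 0.13 (adjusted p = 0.105). Adult and old rats differed by 0.00 ± 0.12, but by 0.42 in the direction of adult rats with quantile normalization (adjusted p = 5.29e-04).

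Ghr, the receptor for growth hormone, fell at each age on its brightest probe, but its dimmer probes did not all do so. On the brightest probe, at chr2:52452463-52452522, pups ran from 0.15 to 1.23, with a median of 0.85. Adult rats read -0.84, -0.10, -0.62 and -0.03 and old rats -1.07, -2.21, -1.41 and -1.30, so that the 3 groups did not overlap. Newborn levels were 2.26-fold above adult (1.18 ± 0.20, adjusted p = 2.22e-05) and 4.84-fold above old levels (2.27 ± 0.20, adjusted p = 1.68e-09). Adult levels were 2.14-fold above old levels (1.10 ± 0.26, adjusted p = 0.00129). The last difference did not pass in a fit of the adult and old rats alone (adjusted p = 0.0207). The probe of this reading had the sequence below, and it was well above background on all 19 newborn, all 8 adult and 6 of 8 old arrays.
Ghr: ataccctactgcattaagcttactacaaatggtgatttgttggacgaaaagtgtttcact
The other Ghr probes lay 25962 bases or more downstream and were near background. One of them, at chr2:52424979-52425038, was well above background on 9 newborn, 4 adult and 0 old arrays, with levels of -2.94 to -1.37 in adult and -6.24 to -4.42 in old rats (adjusted p = 9.58e-05). Against the lowest signal well above background on the old arrays, no fold between adult and old rats can be given for this probe. Newborn and adult rats differed there by 0.11 ± 0.48 (adjusted p = 0.868), and with the mean of all Ghr probes that comparison no longer passed (0.67, adjusted p = 0.0297). The remaining one was not well above background on any array.

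The 5 binding proteins moved in different directions. Igfbp3, which carries most IGF in blood, had the pattern of the hormones. Pups ran from 6.71 to 7.72 on the brightest probe (chr14:87979639-87979698), with a median of 7.15, while adult rats read 3.31, 3.81, 3.48 and 4.16 and old rats 4.36, 4.55, 4.06 and 3.90. Newborn levels were 11.1-fold above adult (3.47 ± 0.16, adjusted p = 3.60e-14) and 7.69-fold above old levels (2.94 ± 0.16, adjusted p = 9.44e-13). Adult and old rats overlapped on this probe, at a difference of -0.53 ± 0.21 for adult minus old (adjusted p = 0.0493). The second probe, whose bases are shown above, gave newborn levels 6.95-fold above adult and 7.31-fold above old levels, and adult and old rats differed there by 0.07 ± 0.20 (adjusted p = 0.832).

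Igfbp4, an inhibitor of IGF action that the protease Pappa cleaves, fell at each age. Pups ran from 5.76 to 7.03 (median 6.59), adult rats read 5.05, 5.69, 5.55 and 6.18, and old rats 4.93, 4.34, 4.76 and 4.54. Adult rats overlapped with the lowest pups, but every old rat lay below every adult rat. Newborn levels were 1.86-fold above adult (0.90 ± 0.17, adjusted p = 6.98e-05) and 3.66-fold above old levels (1.87 ± 0.17, adjusted p = 2.23e-09). Adult levels were 1.96-fold above old levels (0.97 ± 0.21, adjusted p = 7.55e-04). With quantile normalization newborn and adult rats differed by 0.52 (adjusted p = 0.0114), and in a fit of the older groups alone the adult and old rats no longer passed (adjusted p = 0.0168). A dimmer second probe gave 1.04 ± 0.16, 1.65 ± 0.16 and 0.61 ± 0.21 for the same 3 differences, the last with an adjusted p of 0.023. The means of both probes had the order newborn, adult, old.

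Igfbp5, the most conserved of the family and abundant in bone and connective tissue, was highest in adult rats on its brightest probe (chr9:72147294-72147353). Pups ran from 4.69 to 5.78, with a median of 5.21, adult rats read 6.50, 6.59, 6.60 and 6.79, and old rats 5.46, 5.57, 5.55 and 5.66. All 4 adult rats stood above all other rats. Adult levels were 2.60-fold above newborn levels (1.38 ± 0.13, adjusted p = 2.02e-09) and 2.08-fold above old levels (1.06 ± 0.16, adjusted p = 1.20e-05). Newborn and old rats differed by -0.32 ± 0.13 (adjusted p = 0.0365). The second probe, 3288 bases upstream in the gene at chr9:72150641-72150700, did not share this pattern. It read 1.12 to 2.12 in pups, 1.06 to 1.27 in adult and 1.05 to 1.48 in old rats, and was higher in newborn than in adult rats by 0.46 ± 0.10 (adjusted p = 3.47e-04). The correlation of both probes over the 27 rats was -0.36, so the direction for Igfbp5 between newborn and adult rats holds for the brightest probe and not for the gene as a whole.

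Igfbp2, which binds Igf2 with preference and whose probe at chr9:72114139-72114198 lies 33096 bases from the brightest probe of Igfbp5, was lowest in adult rats. Pups ran from 5.37 to 6.80 (median 5.91), adult rats read 4.81, 4.91, 4.56 and 5.02, and old rats 5.76, 5.52, 5.50 and 5.49. Every adult rat lay below every other rat, while the old rats fell among the pups. Newborn levels were 2.23-fold above adult levels (1.16 ± 0.18, adjusted p = 5.79e-06). Newborn and old rats differed by 0.42 ± 0.18 (adjusted p = 0.0533). The difference of -0.74 ± 0.23 between adult and old rats lay just beyond the threshold (adjusted p = 0.0108), and it passed under 8 of the 17 alternatives tried. The adult rats thus had the lowest Igfbp2 levels and, on its brightest probe alone, the highest Igfbp5 levels.

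Igfbp6, the binding protein with the strongest preference for Igf2, did not pass in any age comparison. It ran from 2.34 to 3.75 in pups (median 3.02), read 2.67, 3.05, 2.66 and 3.08 in adult rats, and 3.65, 3.12, 3.70 and 3.61 in old rats. Old rats lay above adult rats without overlap (-0.65 ± 0.23, adjusted p = 0.0234), at a median of all transcripts of -0.13. This difference passed under 3 of the 17 alternatives tried, and that between newborn and old rats under 1 of 20. Newborn rats differed from adult rats by 0.21 ± 0.18 (adjusted p = 0.334) and from old rats by -0.44 ± 0.18 (adjusted p = 0.0399).

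**Figure D3:**
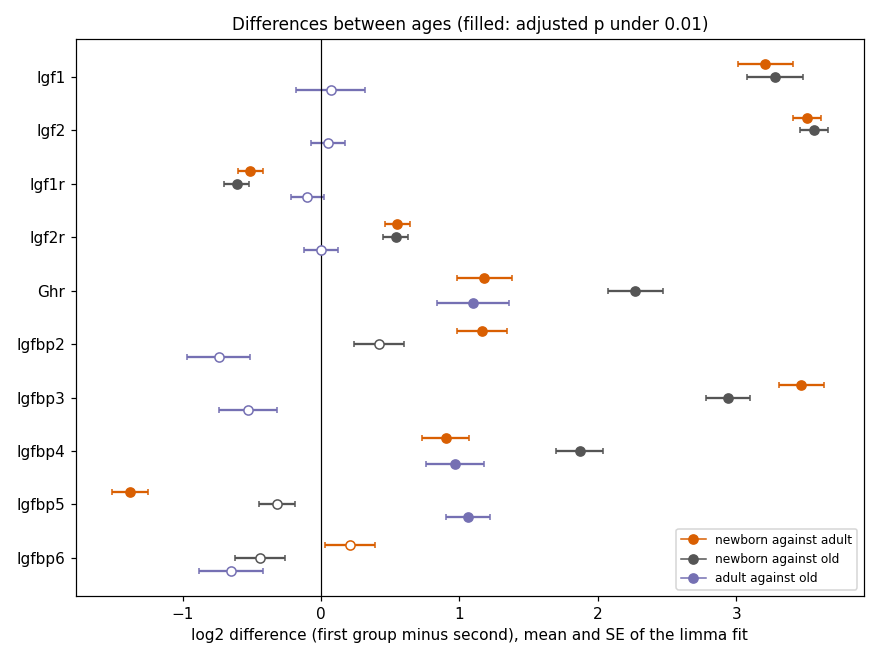
Log2 difference of each member between ages in the limma fit, as the first group minus the second, with its SE. Filled points passed at an adjusted p under 0.01. Igf1, Igf2 and Igfbp3 lie near 3 in both comparisons of newborn rats and are unfilled between adult and old rats, where Ghr, Igfbp4 and Igfbp5 are filled.

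Of the members, Igf2r alone differed among the 4 litters (F = 12.6, adjusted p = 4.79e-04), against 22.6% of all transcripts. Its litter means were 6.45 ± 0.16 in L1 (SD, n = 4 pups), 7.11 ± 0.11 in L2, 6.92 ± 0.16 in L3 and 6.95 ± 0.23 in L4 (SD, n = 5 pups each). Among L2, L3 and L4, which shared their scan days, the adjusted p was 0.386, and 5.53% of all transcripts passed. Within the newborn rats, L1 cannot be told apart from its scan day or from its array slide, which held no other litter. Most pups of each other litter also lay on a slide without other litters, so that litter and slide were largely confounded. Igf2 was next, from 9.49 ± 0.10 in L1 to 9.95 ± 0.09 in L2 (adjusted p = 0.0115). L1 had the lowest mean for 6 members and L2 for the other 4, among which were Igf1 and Igfbp2. The spread of the litter means ran from 0.21 for Ghr to 0.72 for Igfbp4. For Igf2r the spread, 0.66, exceeded the age differences of 0.55 and 0.54, whereas for Igf1, Igf2 and Igfbp3 it was 0.57, 0.46 and 0.36, below each of their differences between newborn and older rats. Where each litter counted as 1 replicate, the members that passed numbered 9 against adult and 7 against old rats, the same as with pups.

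The pair of nostrils of the 8 older rats showed how far 2 dissections of 1 animal can differ. The median absolute difference between nostrils was 0.12 over the 23577 transcripts expressed in every group and measured on all arrays. Igf2 was higher in nostril B in 8 of 8 rats, by 0.37 ± 0.31 on average (SD, n = 8 rats), and so was Igfbp4, by 0.35 ± 0.28. Ghr was higher in nostril B in 7 of 8 rats, by 0.49 ± 0.39. The same count held for Igfbp6 (0.31 ± 0.25), Igf2r (0.11 ± 0.16) and Igfbp5 (0.09 ± 0.15). Igf1 was higher there in 6 rats, Igfbp2 and Igfbp3 in 5 and Igf1r in 2. The share of all transcripts higher in nostril B in 7 of 8 rats was not counted. Of those 23577 transcripts, 0.925% were higher in nostril B in every rat and 0.331% higher in nostril A in every rat. Of the 10 members, 8 differed most in adult rat 16, among them Igf2, Igfbp4 and Ghr. In that rat Ghr read -0.57 in nostril A and 0.52 in nostril B, and Igfbp4 5.68 and 6.69. In the same rat the summed fibroblast genes were 1.96 times and the osteoblast genes 2.14 times as high in nostril B as in A, and the sustentacular and gland genes 0.773 times. Over the 14 lists this ratio ran from 0.679 for ensheathing glia to 2.14 for osteoblasts. Over the 8 rats the fibroblast sum was higher in nostril B in 7 rats, at a median ratio of 1.47, and the sustentacular and gland sum in none. Chondrocyte and pericyte sums were higher in B in 8 rats, macrophages in 7, osteoblasts and endothelial cells in 6, and skeletal muscle in 5. Immature neurons, glia and red cells were higher there in 4, globose basal cells in 3, and mature neurons and horizontal basal cells in 2. The part of the tissue in the differences between nostrils was not tested. The labels do not say which nostril was the left one. Without rat 16 the members passing remained at 9 in number for newborn against adult rats, and with nostril A or B alone no call for Igf1, Igf2 or Igfbp3 was lost.

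**Figure D4:**
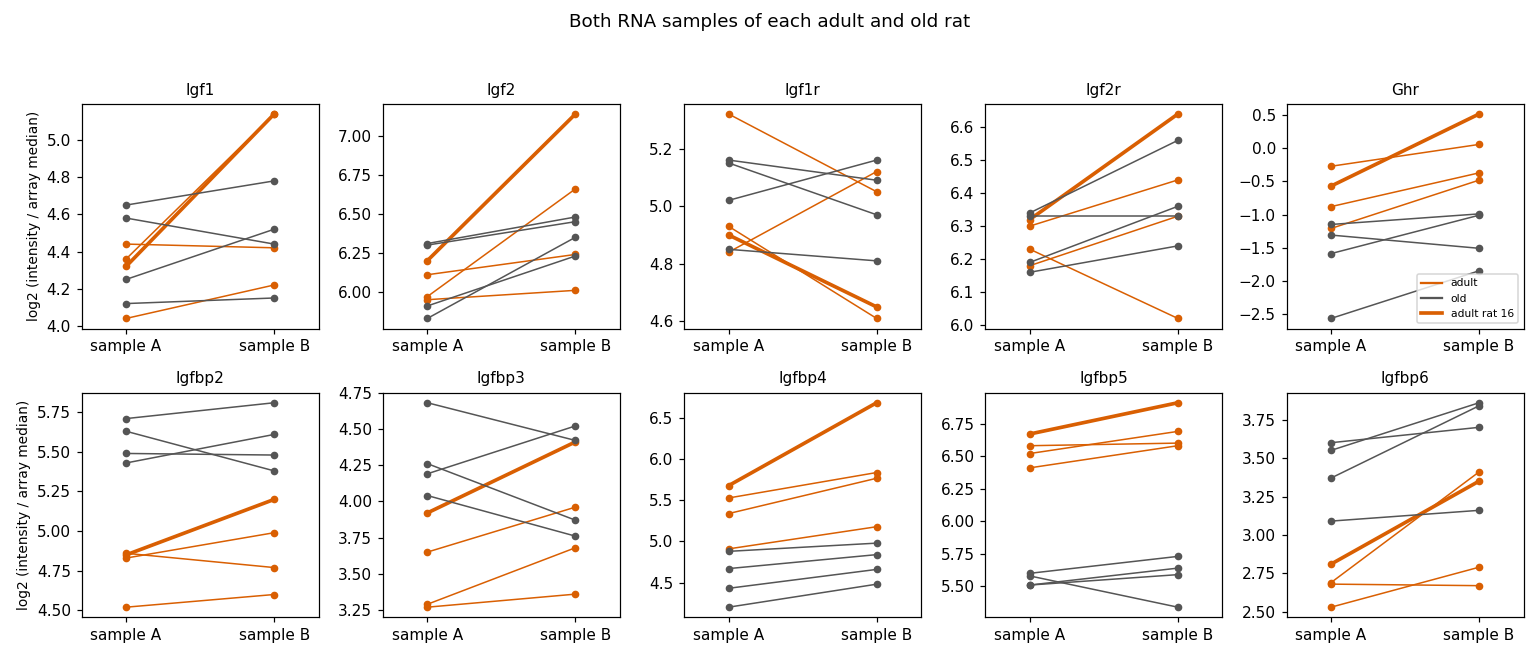
Levels of the 10 members in both nostrils of each adult and old rat, as the log2 of intensity over the array median, with a line for each rat. Igf2 and Igfbp4 rise from A to B in all 8 rats, and the thick line of adult rat 16 has the steepest rise for both.

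The other genes of the pathway did not move with the hormones as a block. Of 55 genes listed, 50 had a probe. In newborn against adult rats 15 were higher in newborn and 11 higher in adult rats (median difference 0.08), against old rats 11 and 13 (median -0.07), and between adult and old rats 4 were higher in adult and 7 higher in old rats (median -0.11). The shares of all transcripts were 26.8% and 19.8%, 20.4% and 22.7%, and 11.7% and 20.2% in the same order. The medians of all transcripts were 0.10, -0.04 and -0.13. The genes of hormone supply, Gh1, Ins1, Ins2 and Igfals, did not pass in any comparison, with 0, 1 and 1 of the 4 at an unadjusted p under 0.05.

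Among the other binding proteins, Igfbpl1, an IGF-binding-like protein known from immature neurons, was 24.4-fold higher in newborn than in adult rats (4.61 ± 0.71, adjusted p = 6.77e-06) and 21.9-fold higher than in old rats. Igfbp1 was 2.62-fold higher in old than in adult rats (1.39 ± 0.33, adjusted p = 0.00147). Pappa, the protease that releases IGF from Igfbp4, was lower in newborn than in adult rats by 0.73 on the log2 scale (adjusted p = 5.90e-04). Of the 6 genes with a probe on this list, 3 were higher and 2 lower in newborn rats against each older group, where the shares of all transcripts were 26.8% and 19.8% against adult and 20.4% and 22.7% against old rats.

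Of the Igf2 mRNA-binding proteins, which hold Igf2 mRNA in the fetus, Igf2bp3 was well above background on all 19 newborn arrays and on none of the adult and old arrays. Its level was at least 6.23-fold higher in newborn than in adult rats and exceeded the old level at least 5.42-fold (adjusted p = 4.90e-16 and 3.01e-18). Igf2bp1 was not well above background on any newborn array.

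Insr, the insulin receptor, which was well above background on 17 of 19 newborn and all older arrays, was 2.65-fold higher in adult than in newborn rats (1.41 ± 0.15, adjusted p = 1.90e-08) and 2.03-fold higher in old rats, the direction of Igf1r. Among the receptor adaptors, Irs2 was 2.13-fold higher in adult rats (adjusted p = 2.22e-08) and 1.77-fold higher in old rats than in newborn rats. Irs1 was well above background on 3 newborn and on no older array, so that no fold is given. Of the 9 adaptors with a probe, 2 were higher and 5 lower in newborn than in adult rats, against 26.8% and 19.8% of all transcripts.

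In the phosphoinositide 3-kinase branch, which carries the receptor signal, 7 of 17 genes were higher and 2 lower in newborn than in adult rats (26.8% and 19.8% of all transcripts), and 5 were higher and 4 lower in newborn than in old rats (20.4% and 22.7%). Pik3cb, a catalytic subunit, was 2.36-fold higher in adult (adjusted p = 3.61e-09) and 2.24-fold higher in old than in newborn rats. Between adult and old rats, Foxo1, the transcription factor that this branch restrains, was 1.75-fold higher in old rats (0.81 ± 0.10, adjusted p = 1.33e-06). Pik3r1, a regulatory subunit, was 1.55-fold higher in adult rats, at the edge of the threshold (adjusted p = 0.00999) and with 7 of 8 old arrays well above background. Cish, a target and brake of growth hormone signalling, was 2.16-fold higher in old than in adult rats (1.11 ± 0.26, adjusted p = 0.00118), while Ghr was lower. Of the 8 genes of growth hormone signalling, 2 were higher in old than in adult rats, against 20.2% of all transcripts. The second of them, Ptpn1, was 1.76-fold higher in old rats (adjusted p = 2.37e-08).

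**Figure D5:**
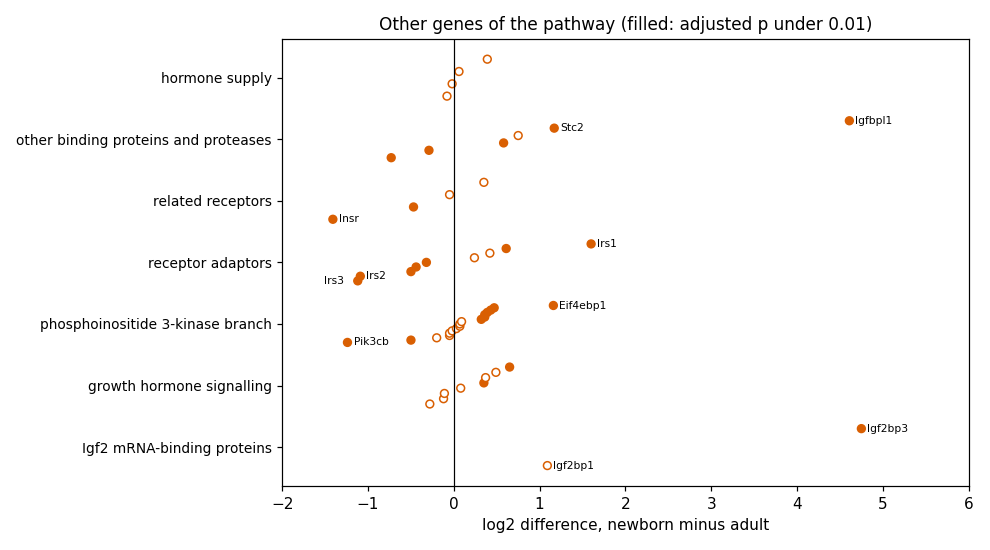
Log2 difference between newborn and adult rats for the 50 other genes of the pathway, by role, with genes beyond 1 unit named. Filled points passed at an adjusted p under 0.01. Most genes lie within 1 unit of 0, and Igfbpl1 and Igf2bp3 stand alone beyond 4, the latter measured against adult signals that were not above background.

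The genes whose levels followed a member most closely over the 27 rats were named by Pearson correlation, as a description, among 9741 genes expressed in every group. All rats share the age groups, which set most of such a correlation. Igf2 was followed by P4ha3 (0.991), Plk1 and Asf1b (both 0.988), Igf1 by Ndn (0.977), Tspan17 (0.974) and Rasip1 (0.972), and Igfbp3 by Col18a1 (0.98), Nme2 and P3h4 (both 0.979). Igfbp4 was followed by the connective tissue genes Fn1 (0.976), Col6a1 and Pdgfra (both 0.969), and Ghr by Lum and Kcnj8 (both 0.97) and Cacna1g (0.969). Igfbp6 had no close match, the highest being C1qtnf7 at 0.701. With the mean of each group subtracted, so that only differences within litters and age groups counted, Igf2 was closest to Lgals1 (0.911), Igfbp4 to Scpep1 (0.907), Ghr to Kcnj8 (0.899), Igfbp2 to Glrx (0.892) and the endothelial genes Cldn5 (0.859) and Esam (0.858), and Igfbp6 to Mfap5 (0.803). Igf1 was closest to Grin2c (0.862) and Igfbp3 to Mrvldc1 (0.85).

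Within litters, no pair of members had a correlation with an adjusted p under 0.01, among 45 pairs. The lowest p over the 19 pups, with litter means subtracted, was that of Igf2r and Igfbp2 (r = -0.85, rho = -0.78, permutation p = 2.40e-04 and 0.002, adjusted p = 0.0108 and 0.045 over 45 pairs). Without the 2 pups farthest from the median of Igf2r, r was -0.76. The next was that of Ghr and Igfbp2 (r = 0.83, rho = 0.86, permutation p = 0.00154 and 7.30e-04, adjusted p = 0.0346 and 0.0328), with r = 0.81 without the 2 farthest pups. These 2 pairs were the only ones under an adjusted p of 0.05 by both measures. Permutations were made within litters, and all members of a pup were read from the same array.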

How the data were processed

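Total RNA of the olfactory epithelium was labeled with 1 dye and hybridized to Agilent whole rat genome arrays. The authors scanned them and deposited Feature Extraction output (9.5.1.1 for adult arrays, 9.5.3.1 for the others), whose intensity per spot is background-subtracted and not normalized between arrays. Mean and local background intensities and quality flags were also deposited. The authors further deposited a matrix of ratio values (GeneSpring, floored at 0.01), used as an alternative only. Coordinates are those of the files, in rn3.

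Control spots and outlier spots were left out (890 values missing on 494 probes) and spots of a probe averaged. Intensities were divided by the array median, floored at 0.01 and put on the log2 scale, and the 2 arrays of an older rat averaged. R 4.3.3 and limma 3.58.1 (lmFit, eBayes) were run over the 6 groups with newborn as the mean of 4 litters. Adjusted p-values are those of Benjamini and Hochberg over all probes (21 had too few values for adult rats), and measure the spread between rats. A call required an adjusted p under 0.01. The number of arrays limits the precision. A probe that was well above background on none of the arrays of a group has only a bound there, taken against the lowest signal well above background on each array. Symbols other than the members' came from RefSeq for 10735 probes, otherwise from the files. The models were tested on simulated data.

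Genes named were every member, and for each age comparison the 3 pathway genes with the largest difference in each direction that passed without overlap, and the 3 genes most like each member, before and after subtracting group means, of which some are given. Foxo1 and Ptpn1 tied between adult and old rats after rounding, and Foxo1 was taken, although the unrounded difference of Ptpn1 was slightly larger. Pappa, Ptpn1, Gh1, Ins1, Ins2, Igfals and Igf2bp1 were named after their values were seen. Members and lists were chosen with earlier results of these data known. The 14 marker lists (71 of 75 genes with a probe) were for sensory neurons (mature, immature), basal cells (horizontal, globose), sustentacular and gland cells, ensheathing glia, fibroblasts, osteoblasts, chondrocytes, endothelial cells, pericytes and smooth muscle, skeletal muscle, red cells and macrophages. Alternatives were the 75th percentile, quantile normalization, normexp (offset 50) with quantile normalization, the deposited matrix, the floor before scaling, arrays as samples, the rat, slide or scan day as a random block, litter means, 1 nostril, only the groups compared, the methods' t-test, eBayes with trend, filters on dim probes, the mean of a gene's probes, 1 scan day, and each rat left out. The alternative with only L2 to L4, and the runs on further probes and pathway genes, were added after seeing the data.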

Additional observations from a re-analysis of the deposited data

Results flagged for a closer look

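In litter L3, the pup rat 30 had the lowest Igf2r level, 6.65, apart from the other pups of its litter at 6.94 to 7.03. Among the old rats, rat 17 had the highest Igfbp2 level, 5.76, against 5.49 to 5.52 in the others. Rat 18 had the lowest Igfbp6 level of the old rats, 3.12, against 3.61 to 3.70. These were the samples far from the rest of their group in 3 of 60 groups examined, and chance alone gives about 1 in 20.

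The litters differed in Igf2r (limma F test, adjusted p = 4.79e-04), with L1 lowest and L2 highest. L1 was scanned on another day than L2, L3 and L4, and on a slide of its own.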

How the results depend on the processing

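The number of members that passed was 7 to 9 for newborn against adult rats and 6 to 10 for newborn against old rats over the alternatives tried, and leaving out each rat gave 9 to 9 and 7 to 8. For adult against old rats it ran from 2 to 6 over the alternatives. With only the groups compared, and with the methods' t-test, Ghr and Igfbp4 no longer passed and Igfbp2 newly passed. The number was 5 with quantile normalization, with normexp, with a random block for the rat, with nostril A alone, 6 with every array as a sample, and 3 to 5 with each rat left out, the 5 without rat 34 of L4. Among litters it was 2 with only the groups compared, with eBayes trend and robust estimation, and with only transcripts expressed in all 6 groups or in at least 1 group, where Igf2 joined Igf2r. It was 0 with only L2 to L4, and 1 to 2 with each rat left out, the 2 without adult rat 13, adult rat 16 or pup rat 32. Igf2r between adult and old rats turned from 0.00 to 0.42 with quantile normalization (adjusted p = 5.29e-04) and to 0.38 with normexp (adjusted p = 3.11e-04), and the cause was not tested. Of 1370 values for the brightest probes under all alternatives, 1334 stayed on their side of the threshold (15 of them, none passing, changed sign), 9 no longer passed and 25 newly passed with their sign kept. The other 2, those of Igf2r just given, newly passed with a changed sign. The methods' t-test gave 9, 7 and 2 members at an unadjusted p under 0.01, and the same numbers after Benjamini-Hochberg adjustment. No paired analysis was possible because no rat number is shared between groups. Dim probes, among them the downstream Igf1 leader and Irs1, are limited by their signal over background.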
